A study of Mus musculus with 11 samples.

Results

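The genes described here encode the giant protocadherins Dchs1, Fat1 and Fat4, the kinase Fjx1 that modifies them, and the core planar cell polarity proteins Celsr1, Celsr2, Vangl1, Vangl2 and Prickle1. They are 9 of the 28591 gene symbols in the deposited tables, were taken by symbol, and were all found in both tables. Expression was measured by RNA sequencing of leaflets of the mouse mitral valve, which separates left atrium from left ventricle, in 11 libraries from 2 experiments. In the first, 3 libraries came from Ift88 f/f mice carrying NfatC1Cre, labelled knockout, and 2 from mice with the same Cre and Ift88+/+, so both groups carry the Cre. Nfatc1 is active in the endocardial lineage of the valves, so this Cre does not act in every cell of a leaflet. In the second, 3 libraries came from mice heterozygous for the S14R allele of Dzip1 (Dzip1 S14R/+) and 3 from Dzip1+/+ mice. Ift88 encodes a protein of the transport along cilia and Dzip1 a protein of the ciliary base. No age is stated in the sources used here. Nothing in the labels says whether libraries are separate animals, so all p-values here reflect only library-to-library spread, which may be technical.

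Planar cell polarity is the alignment of cells along the plane of a tissue. In the Dchs-Fat branch, Dchs1 on one cell binds Fat4 on its neighbour, and Fjx1, a Golgi kinase related to Drosophila four-jointed, phosphorylates cadherin domains and so tunes this binding. In the core branch, the atypical cadherins Celsr1 and Celsr2 bind the same protein on the next cell, and Vangl and Prickle proteins gather on the opposite side of the cell from Frizzled and Dishevelled. Dchs1 is a known mitral valve prolapse gene, which is why these pathways are of interest in the leaflet.

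The libraries of the Ift88 experiment differed widely from each other and those of the Dzip1 experiment much less. Total counts were 23.4 to 53.8 M in the first and 75.1 to 93.5 M in the second, and the biological coefficient of variation, the spread between libraries beyond counting error, was 87.7% and 7.85%. The Ift88 transcript itself stood at 6.31 and 21.2 CPM (counts scaled to the same total in each library) in the wild type and at 3.03, 4.12 and 0.428 CPM in the knockout, so every knockout library was below both wild-type libraries. The summed CPM of cell type markers also differed among the Ift88 libraries. The 12 cardiomyocyte markers summed to 56145 CPM in wild-type replicate 1, to 112 CPM in wild-type replicate 2 and to 29780 to 38262 CPM in the knockout. The 10 markers of valve interstitial cells, the fibroblast-like cells of the leaflet, summed to 2344 and 8347 CPM in the wild type and to 8368 to 12121 CPM in the knockout. The 8 endothelial markers summed to 254 and 2450 CPM against 1403 to 2534 CPM. No marker of these lists was at 0 in a library except Sln in knockout replicate 1. Adipocyte, leukocyte, smooth muscle and pericyte, epicardial, melanocyte and Schwann, and red cell markers each summed to at most 1671 CPM in any Ift88 library.

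The Dchs-Fat genes were examined first in the Ift88 knockout, where the comparison asks which leaflet transcripts differ after deletion of Ift88 with this Cre. Dchs1, Fat1 and Fat4 were all higher in every knockout library than in either wild-type library, by about 5.41, 9.01 and 2.97 times between group means. None of them passed an adjusted p of 0.05 in edgeR's quasi-likelihood test with Benjamini-Hochberg adjustment over the 14244 genes tested, which called 0% of those genes. At an unadjusted p under 0.05 edgeR had 856 genes (6.01%), with 4.75% of all tested genes higher in the knockout and 1.26% lower. DESeq2, a second test on the same counts, called 376 of 16131 genes (2.33%), among them Dchs1 and Fat1.

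Dchs1 (ENSMUSG00000036862.15, GRCm38 chromosome 7, 105752990 to 105787654, reverse strand) encodes the protocadherin that acts as the ligand of Fat4. Its counts were 83 and 493 in wild-type replicates 1 and 2 and 1155, 1225 and 666 in knockout replicates 1, 2 and 3. Per library this was 2.64 and 9.17 CPM in the wild type and 36.8, 30.4 and 28.5 CPM in the knockout. The 3 knockout libraries lay close together and the 2 wild-type libraries lay apart from each other and below all of them. The group means were 31.9 ± 4.36 CPM (SD, n = 3) and 5.90 ± 4.61 CPM (SD, n = 2), and the log2 fold change, knockout over wild type, was 2.40 ± 0.635 (SE, adjusted p = 0.802 in edgeR, adjusted p = 0.016 in DESeq2). In the authors' deposited table Dchs1 has an adjusted p of 0.0291, and 184 of the 12872 genes with such a value there (1.43%) are below 0.05.

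Fat1 (ENSMUSG00000070047.14, chromosome 8, 44935447 to 45052257, forward strand) encodes a protocadherin that also acts in cell contacts and actin organisation. It stood at 4.17 and 1.08 CPM in the wild type and at 19.9, 28.9 and 22.3 CPM in the knockout, from 131 and 58 counts against 623, 1162 and 520. Here wild-type replicate 2 was the lowest library, whereas for Dchs1 it was wild-type replicate 1. The log2 fold change was 2.93 ± 0.877 (SE, adjusted p = 0.802 in edgeR, adjusted p = 0.0299 in DESeq2). Leaving out wild-type replicate 1 gave 4.46 and leaving out replicate 2 gave 2.19, while for Dchs1 these fits gave 1.82 and 3.29. In the authors' deposited table Fat1 is listed with an adjusted p of 0.0563.

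Fat4 (ENSMUSG00000046743.6, chromosome 3, 38886940 to 39011985, forward strand) encodes the receptor of Dchs1. It stood at 3.25 and 10.5 CPM in the wild type and at 27.8, 20.3 and 13.1 CPM in the knockout, from 102 and 565 counts against 873, 818 and 306. The groups did not overlap, but knockout replicate 3 lay nearer to wild-type replicate 2 than to knockout replicate 1. Its log2 fold change of 1.53 ± 0.718 (SE) passed in neither tool (adjusted p = 0.802 in edgeR, adjusted p = 0.457 in DESeq2). Without wild-type replicate 1 it was 0.99, and without wild-type replicate 2 it was 2.35.

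Fjx1 (ENSMUSG00000075012.4, chromosome 2, 102449366 to 102452499, reverse strand), the kinase of this branch, is a single-exon gene and was sparsely counted. It stood at 0.478 and 2.10 CPM in the wild type and at 0.319, 2.43 and 3.25 CPM in the knockout, from 15 and 113 counts against 10, 98 and 76. The groups overlapped, with knockout replicate 1 the lowest library of all. The log2 fold change of 0.59 ± 1.66 (SE) was smaller than its error (adjusted p = 0.982 in edgeR), so a change of Fjx1 was not detectable at this depth and spread.

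**Figure D1:**
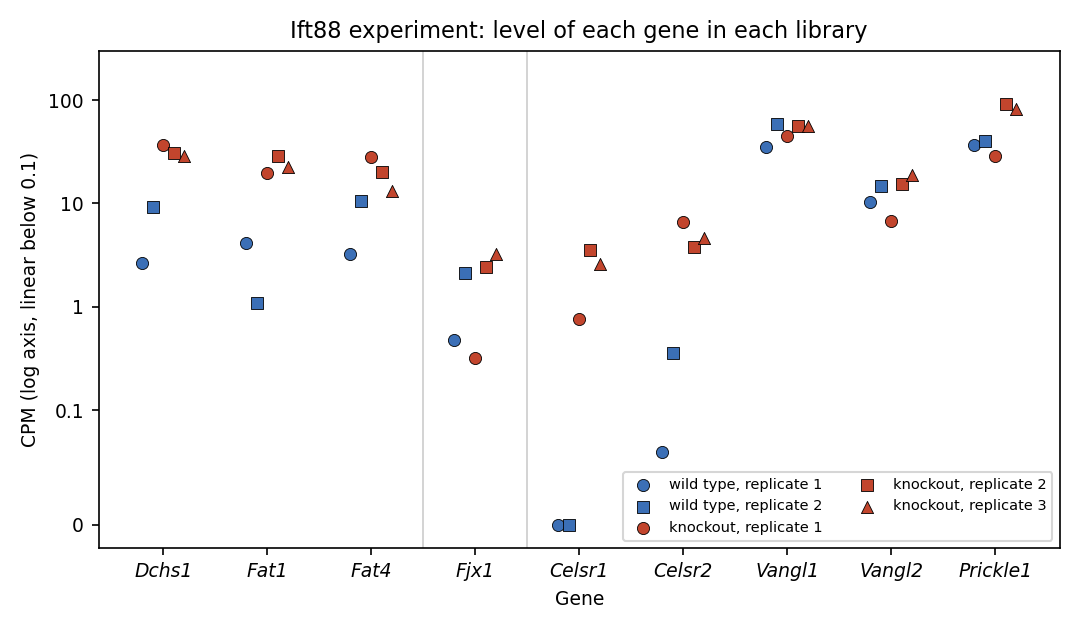
Level of each of the 9 genes in each Ift88 library. The vertical axis is CPM on a log axis that turns linear below 0.1, and each point is 1 library (blue, 2 wild-type libraries; red, 3 knockout libraries). Dchs1, Fat1, Fat4, Celsr1 and Celsr2 have all red points above both blue points, and the other 4 genes overlap.

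Among the core polarity genes Celsr1 and Celsr2 were separated between the groups and Vangl1, Vangl2 and Prickle1 were not. Celsr3, the other atypical cadherin of this family and a gene of the wider list, had few counts (3 and 22 against 0, 28 and 0), overlapped and had a log2 fold change of -0.16 ± 2.71 (SE). Celsr1 (ENSMUSG00000016028.10, chromosome 15, 85898929 to 86033777, reverse strand) had no count in either wild-type library and 24, 143 and 61 counts in the knockout, or 0.765, 3.55 and 2.61 CPM. With a floor of 3 counts over the wild-type group, the pooled level was at least 68.2-fold higher in the knockout. In the wild-type libraries of the Dzip1 experiment Celsr1 stood at 57.0 to 62.9 CPM, above every Ift88 library of either group. Its adjusted p was 0.802 in edgeR and 0.00641 in DESeq2, and 0.265 in the authors' deposited table. Celsr2 (ENSMUSG00000068740.13, chromosome 3, 108390851 to 108415552, reverse strand) had 2 and 19 counts in the wild type and 208, 152 and 108 in the knockout. This was 0.0637 and 0.353 CPM against 6.63, 3.77 and 4.62 CPM, with no overlap. Its log2 fold change was 4.54 ± 1.51 (SE, adjusted p = 0.802 in edgeR, adjusted p = 0.00336 in DESeq2), and its adjusted p in the authors' deposited table is 0.0179. The floor of Celsr1 and the bound on its fold cover counting error only. The SE values come from the fit and also include the spread between libraries.

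Vangl1 and Vangl2, the multi-pass membrane proteins that recruit Prickle, showed no such separation. Vangl1 (ENSMUSG00000027860.15, chromosome 3, 102153583 to 102204693, reverse strand) stood at 35.0 and 58.7 CPM in the wild type and at 44.9, 56.1 and 56.7 CPM in the knockout. All 3 knockout values lay between those of the wild type. Vangl2 (ENSMUSG00000026556.15, chromosome 1, 172000960 to 172028444, reverse strand) stood at 10.3 and 14.8 CPM against 6.82, 15.4 and 18.9 CPM, with knockout replicate 1 below both wild-type libraries and the other knockout libraries above them. The log2 fold changes were 0.069 ± 0.352 (SE, adjusted p = 0.989 in edgeR) for Vangl1 and 0.0099 ± 0.654 (SE, adjusted p = 1 in edgeR) for Vangl2. The sign of Vangl2 turned under RLE scaling (-0.055) and upper-quartile scaling (-0.030). Prickle1 (ENSMUSG00000036158.12, chromosome 15, 93499114 to 93595891, reverse strand), a LIM domain protein that binds Vangl, stood at 37.1 and 40.0 CPM against 28.5, 91.1 and 82.0 CPM. In knockout replicates 2 and 3 it was above both wild-type libraries and in knockout replicate 1 below them, and its log2 fold change was 0.66 ± 0.551 (SE, adjusted p = 0.898 in edgeR).

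Promoter sequence from RefSeq (GRCm38.p6) was matched for 5 of the 9 genes. The 250 bases before the start are shown for the separated genes Fat1, Fat4 and Celsr2 and, beside them, for the overlapping gene Prickle1 (its upstream start). Any part of these sequences in the pattern of the Ift88 experiment was not tested. Each is written 5′ to 3′ on the strand of the gene. The windows are chr8:44949958-44950207 forward for Fat1 (inside the annotated gene span), chr3:38886690-38886939 forward for Fat4, chr3:108415580-108415829 reverse for Celsr2 and chr15:93595903-93596152 reverse for Prickle1. Capitals mark matches on either strand to the motif of the TBP protein, TATAAA, to that of the TEAD factors, GGAATG, to the E-box, CACGTG, or to that of the Sp family, GGGCGG.
Fat1: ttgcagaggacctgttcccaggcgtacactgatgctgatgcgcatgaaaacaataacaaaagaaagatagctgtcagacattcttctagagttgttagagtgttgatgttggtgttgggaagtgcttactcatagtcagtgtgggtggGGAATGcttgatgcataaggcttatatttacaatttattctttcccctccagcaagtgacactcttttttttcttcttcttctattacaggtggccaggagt
Fat4: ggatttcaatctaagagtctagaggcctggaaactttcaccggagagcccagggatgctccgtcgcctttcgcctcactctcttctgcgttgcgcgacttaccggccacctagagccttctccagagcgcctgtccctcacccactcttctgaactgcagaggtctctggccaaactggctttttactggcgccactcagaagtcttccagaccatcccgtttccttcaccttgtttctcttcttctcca
Celsr2: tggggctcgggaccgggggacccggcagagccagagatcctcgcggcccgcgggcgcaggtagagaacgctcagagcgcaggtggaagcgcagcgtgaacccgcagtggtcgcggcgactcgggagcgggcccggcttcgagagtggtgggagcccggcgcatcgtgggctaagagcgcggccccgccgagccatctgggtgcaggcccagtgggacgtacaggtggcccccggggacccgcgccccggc
Prickle1: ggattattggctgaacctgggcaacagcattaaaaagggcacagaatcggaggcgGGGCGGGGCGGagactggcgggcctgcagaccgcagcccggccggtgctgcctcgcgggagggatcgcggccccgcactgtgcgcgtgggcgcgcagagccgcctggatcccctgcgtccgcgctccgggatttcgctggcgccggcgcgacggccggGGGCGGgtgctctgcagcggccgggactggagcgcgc
The Fat1 window held 1 GGAATG, which 12.6% of the 32851 RefSeq windows of this length held. Prickle1 held 3 matches to GGGCGG, 2 of them overlapping in 1 run, a motif found in 32.7% of windows. Fat4 and Celsr2 held none of the 4 motifs, and TATAAA and CACGTG, found in 12.4% and 6.02% of windows, were in none of those shown. The share of G and C was 42% in Fat1, 54.8% in Fat4, 75.2% in Celsr2 and 74% in Prickle1, a range as wide among the separated genes as over all windows shown. The windows of the overlapping gene Vangl2 and of the other Prickle1 start are not shown. Each held 2 matches to GGGCGG, with 73.6% and 60.8% of G and C.

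In all, 9 of 9 genes passed the filter on low counts in both experiments. In the Ift88 experiment Celsr1, with no wild-type count, passed it only through the knockout libraries. It is included in the counts of genes that follow for that experiment. In the Ift88 experiment the fitted fold changes were positive for 9 of 9, with a median of 1.53 (also 1.53 with Celsr1 at its bound), where all tested genes had a median of -0.013 and 49.4% were positive. Those of Vangl1, Vangl2 and Fjx1 were smaller than their SE, and Vangl2 was negative in DESeq2 (-0.055) and limma-voom (-0.14). Scaling by library size alone put the median of all tested genes at 0.10. The groups did not overlap for 5 of the 9, all of them higher in the knockout. Over all tested genes 15.4% were separated in that direction and 7.55% in the other. DESeq2 called 4 of the 9 higher, where it called 2.22% of genes higher and 0.112% lower. At an unadjusted p under 0.05 edgeR had the same 4 genes, from the same counts. At that level 4.75% of all tested genes were higher and 1.26% lower. These counts describe genes chosen with earlier results in view and carry no test of the group. In bulk tissue, a smaller number of cells of a type and less RNA per cell cannot be told apart, and the part of cell content in these differences was not tested.

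The 5 separated genes are also the 5 with the longest transcripts. The longest annotated transcripts of Fat4, Fat1, Celsr1, Dchs1 and Celsr2 are 16.1, 14.8, 10.9, 10.8 and 10.6 kb, and those of Vangl1, Vangl2, Prickle1 and Fjx1 are 6.53, 6.53, 4.14 and 3.13 kb. Fold changes in this comparison went with transcript length across the whole table. The median log2 fold change was -0.44 over the 3139 genes under 2 kb, -0.11 at 2 to 4 kb, 0.26 at 4 to 6 kb, 0.73 at 6 to 8 kb, 0.89 at 8 to 10 kb and 1.35 over the 335 genes above 10 kb. Of those 335 genes, 86% had a positive fold change and 48.1% had every knockout library above both wild-type libraries. Genes above 10 kb took 0.728% and 0.74% of all counts in the wild type and 1.2%, 1.54% and 1.08% in the knockout. With a length-dependent offset fitted in each library, the log2 fold change of Dchs1 became 1.18, that of Fat1 1.51, that of Celsr2 3.37 and that of Fat4 -0.11. The same offset put Vangl1 at -0.68 and Vangl2 at -0.75. The median of the 9 genes became 0.57 (Celsr1 included at its fitted value). So Dchs1, Fat1 and Celsr2 stayed above 0 with the offset, as did the overlapping genes Fjx1 (0.57) and Prickle1 (0.43). Fat4 did not. edgeR called 0 genes in that fit, where each of the 9 had an adjusted p of 0.999.

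**Figure D2:**
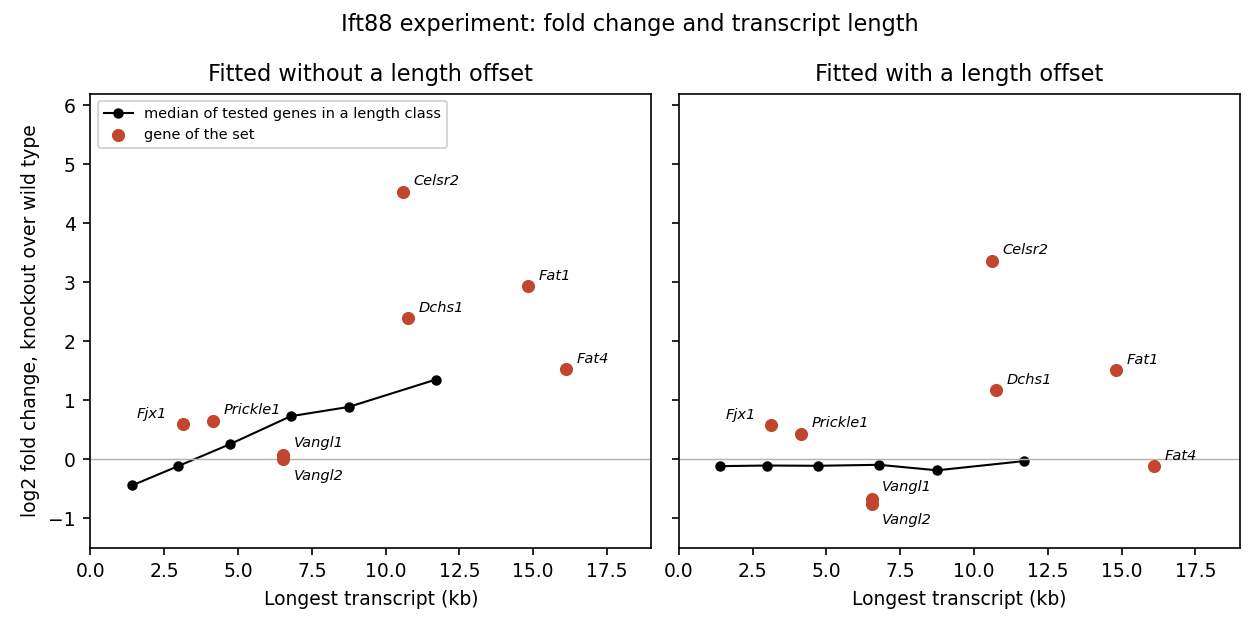
Log2 fold change in the Ift88 experiment against the length of the longest transcript in kb, without (left) and with (right) a length offset in the fit. Red points are 8 of the 9 genes (Celsr1, with no wild-type count, is left out) and black points join the medians of all tested genes in 6 length classes, placed at the median length of the class. Without the offset the black line climbs from -0.44 to 1.35 and Dchs1, Fat1, Fat4 and Celsr2 lie above its last point. With the offset the line stays between -0.19 and -0.029, and Fat4 lies at -0.11.

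The fold changes also moved with the wild-type library used. The log2 fold changes of Dchs1, Fat4, Celsr2 and Fjx1 were larger without wild-type replicate 2, the library nearly free of heart muscle transcripts, and that of Fat1 was larger without wild-type replicate 1. For Celsr2 the value was 5.92 in the first of these fits and 3.84 in the other. Fjx1 went from 1.74 to -0.077 between these fits. Dchs1, Fat1, Fat4 and Celsr2 were positive whichever single library was left out. Their lowest values were 1.82, 2.19, 0.99 and 3.84. Prickle1, whose groups overlapped, was also positive in each of these fits, with a lowest value of 0.39. Where 1 wild-type library remains, it is assumed to vary like the other libraries. Wild-type replicate 1 and knockout replicates 1 and 2 share the title prefix IR28N. Within these 3 libraries the log2 fold change of Dchs1 was 3.37, that of Fat1 2.24, that of Fat4 2.59 and that of Celsr2 5.99, and 0 genes passed.

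**Figure D3:**
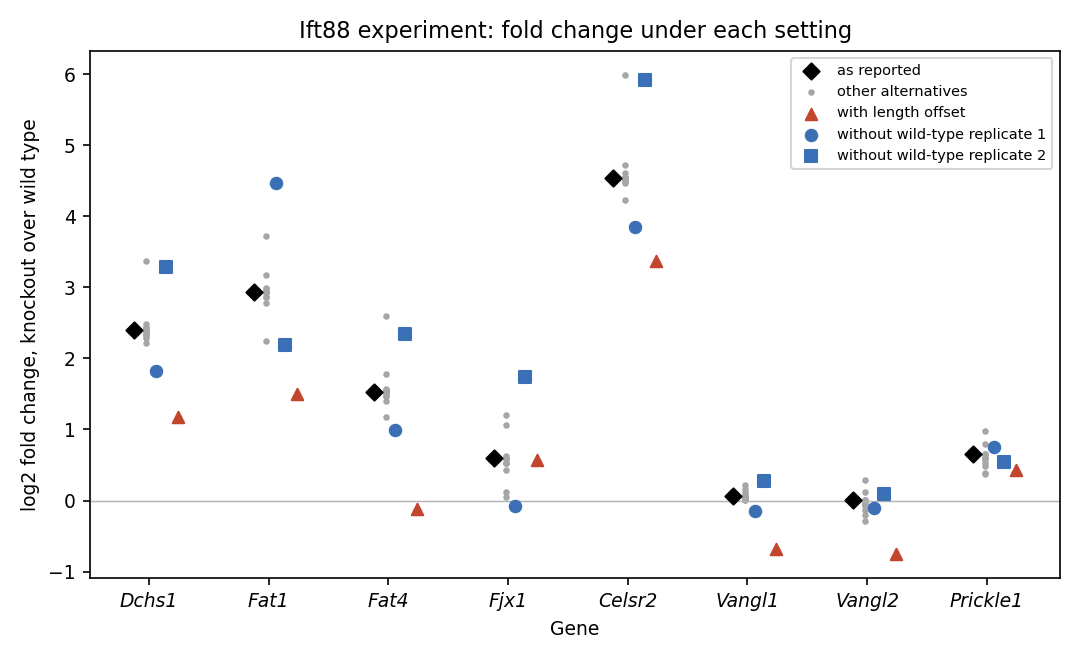
Log2 fold change of 8 genes in the Ift88 experiment under each setting (Celsr1 left out). Black diamonds are the reported values, blue points leave out 1 wild-type library, red triangles use the length offset and grey points are the other alternatives. Dchs1, Fat1, Celsr2 and the overlapping gene Prickle1 lie above 0 at every setting, while Vangl1 and Vangl2 lie on both sides of it.

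The genes nearest to Dchs1 in the Ift88 experiment were found by the root mean square difference of centred log2 CPM over the 5 libraries, among the 12029 named genes whose mean count reached 50, the 9 genes left out. Nearest were Loxl2 (0.154), which encodes a collagen cross-linking enzyme, the guidance receptor gene Robo1 (0.20), Hmcn1 (0.222), which encodes the matrix protein hemicentin, the zinc finger gene Zfp442 (0.228) and the receptor gene Notch1 (0.233). Loxl2, the nearest, stood at 6.69 and 26.8 CPM in the wild type and at 113, 89.9 and 66.3 CPM in the knockout, with wild-type replicate 1 the lowest library and knockout replicate 1 the highest, as for Dchs1. Within the set, Fat4 was the nearest to Dchs1 with 0.52, and 97 of the 12029 genes were nearer. Fat1 was at 1.24, with 3198 genes nearer. The measure describes 5 libraries that share their genotype groups and length trend.

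A wider list of 39 polarity pathway genes held 38 symbols of the Ift88 table, of which 36 could be tested. Dchs2 was not matched, Fat2 had no count in any library and Fat3 had 2 counts in all. edgeR called 0 of the 36, as of all tested genes, and had 6 at an unadjusted p under 0.05, where it had 6.01% of all tested genes. DESeq2 called 2, both higher, where it called 2.22% of genes higher. The groups were separated upwards in 8 and downwards in 1, where 15.4% and 7.55% of all tested genes were. The median log2 fold change was 0.39 and 23 were positive, where 49.4% of all tested genes were. That median was 0.089 with the length offset, 0.98 without wild-type replicate 2 and 1.27 in the IR28N libraries. The 5 tested partners of Dchs and Fat proteins were all positive with a median of 1.04, and the 12 remaining core polarity genes, which include the Frizzled and Dishevelled genes, were split evenly between both signs with a median of -0.056. The 6 Wnt ligands and co-receptors had a median of 0.27 and the 13 effectors 0.51.

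Ror2, a Wnt5a receptor, had the smallest p of this list among separated genes. It stood at 6.91 and 8.85 CPM in the wild type and at 37.3, 21.5 and 40.6 CPM in the knockout. The groups lay far apart, with a log2 fold change of 1.96 ± 0.529 (SE, adjusted p = 0.802 in edgeR, adjusted p = 0.0242 in DESeq2). Daam1, a formin that links Dishevelled to actin, stood at 20.5 and 22.8 CPM against 47.2, 89.5 and 67.5 CPM (log2 fold change 1.52 ± 0.423, SE). Mpp5, the Pals1 scaffold of apical polarity, stood at 17.3 and 15.7 CPM against 33.6, 48.9 and 48.2 CPM (1.25 ± 0.43). Both were separated without overlap and had an adjusted p of 0.802 in edgeR. Scrib, named after its values were seen, was the other gene called by DESeq2 (adjusted p = 0.00186). It encodes a scaffold that binds Vangl2, and stood at 0.255 and 0.205 CPM in the wild type and at 3.89, 4.2 and 4.02 CPM in the knockout. These values rest on 8 and 11 counts against 122, 169 and 94. In the Dzip1 libraries Scrib stood at 111 to 128 CPM, far above every Ift88 library.

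In the Dzip1 experiment the genotype of each library rests on a column name that matches its label, and 2 checks of the table did not follow the labels. The authors' deposited statistics in that table followed a split of S14R/+ replicates 1 and 3 with wild-type replicate 2 against the remaining 3 libraries (Pearson r = -0.997 across 21013 genes, which are not independent, and -0.602 for the labelled genotypes). Wild-type replicate 2 was also closer in its counts to the S14R/+ libraries (chi-squared over its degrees of freedom 11.2 to 17.0) than to the other wild-type libraries (29.9 and 31.2). Whether the column names or the deposited comparison is at fault was not settled, so each direction given for this experiment holds for the libraries as labelled.

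The Dzip1 comparison asks which transcripts differ in leaflets heterozygous for S14R. Dchs1 was about 7% lower in S14R/+, with every mutant library below every wild-type library, and the other 8 genes differed between group means by less than that. Neither edgeR nor DESeq2 called any gene in this experiment (0% of 16160 and of 21010 genes). At an unadjusted p under 0.05 edgeR had 959 genes (5.93%), of which 570 were lower (3.53%) and the others higher (2.41%). Of the 9 genes only Dchs1 was among them.

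Dchs1 stood at 172, 173 and 175 CPM in the wild type and at 161, 164 and 159 CPM in S14R/+, from 13502, 13689 and 13114 counts against 13801, 14826 and 14835. The wild-type libraries spanned less than the gap between the groups. The means were 173 ± 1.44 and 161 ± 2.55 CPM (SD, n = 3 each), a ratio of 0.93, and the log2 fold change, S14R/+ over wild type, was -0.092 ± 0.0313 (SE, unadjusted p = 0.0146 and adjusted p = 0.822 in edgeR). It ranged from -0.105 to -0.082 when single libraries were left out, with -0.082 (adjusted p = 0.337 in edgeR) without wild-type replicate 2. DESeq2 gave an adjusted p of 0.796. The summed CPM of some cell type markers differed between the labelled groups as well. Cardiomyocyte markers summed to 45068 to 45439 CPM in S14R/+ and 39145 to 43527 CPM in the wild type, without overlap. Leukocyte markers (7 of 8 matched) summed to 82.3 to 91.2 CPM against 93.6 to 117 CPM, also without overlap. Valve interstitial markers summed to 5899 to 6381 CPM against 6239 to 8295 CPM and endothelial markers to 1144 to 1174 CPM against 1131 to 1192 CPM. Both of these overlapped. No marker of these 4 lists was at 0 in a Dzip1 library, and their part in the difference of Dchs1 was not tested.

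Fat1, the most highly counted of the set, stood at 346, 364 and 319 CPM in the wild type and at 335, 336 and 336 CPM in S14R/+. The mutant libraries fell inside the wild-type range, and the log2 fold change was -0.019 ± 0.0529 (SE, adjusted p = 0.963 in edgeR). Fat4 stood at 97.4, 112 and 91.7 CPM against 95.8, 101 and 97.0 CPM, again inside the wild-type range. Its log2 fold change was -0.024 ± 0.0697 (SE). Fjx1 stood at 8.63, 8.32 and 8.13 CPM against 8.29, 8.87 and 7.42 CPM, where S14R/+ held both the highest and the lowest library, and its log2 fold change was -0.017 ± 0.0842 (SE).

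Celsr1 had the largest positive fold change of the set. It stood at 57.0, 62.9 and 57.0 CPM in the wild type and at 64.7, 63.4 and 58.6 CPM in S14R/+, with overlap through wild-type replicate 2 and S14R/+ replicate 3, and a log2 fold change of 0.088 ± 0.0559 (SE, adjusted p = 0.852 in edgeR). Without wild-type replicate 2 it was 0.15 (adjusted p = 0.164 in edgeR). Celsr2 stood at 25.3 ± 1.22 CPM in the wild type and 25.1 ± 0.777 CPM in S14R/+ (SD, n = 3 each). Its fold change was near 0 and took either sign with the scaling and the library left out.

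Vangl1 stood at 42.0 ± 1.08 CPM in the wild type and 41.2 ± 0.567 CPM in S14R/+, and Vangl2 at 28.2 ± 0.522 and 27.7 ± 0.563 CPM (SD, n = 3 each). The groups overlapped for both genes, which had log2 fold changes of -0.015 ± 0.0425 and -0.01 ± 0.049 (SE). Prickle1 was, with Dchs1, the other gene without overlap. It stood at 84.7, 85.2 and 85.9 CPM in the wild type and at 83.9, 81.0 and 82.8 CPM in S14R/+, and the smallest gap between the groups was under 1 CPM. Its log2 fold change was -0.034 ± 0.0316 (SE, adjusted p = 0.888 in edgeR). So 2 of the 9 were separated downwards, where 5.86% of all tested genes were, and 0 upwards, where 4.58% were. Without wild-type replicate 2 the log2 fold change of Prickle1 was -0.024, and Fat1, Fat4 and Vangl2 turned to 0.036, 0.073 and 0.014, with 0 of the 9 past the threshold and 10 genes called in all.

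**Figure D4:**
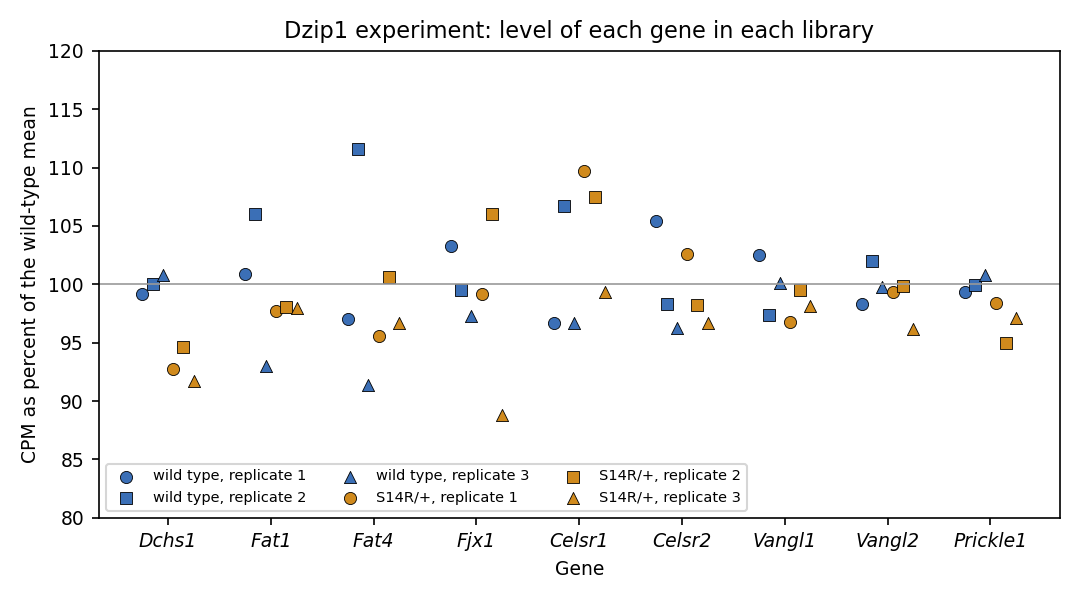
Level of each gene in each Dzip1 library as a percent of the mean of the 3 wild-type libraries (blue, wild type; orange, S14R/+; shapes mark replicates). The axis covers 20 percent to either side of that mean. Dchs1 and Prickle1 have all 3 orange points below all 3 blue points, and the other 7 genes overlap.

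The 9 genes had a median log2 fold change of -0.017 in the Dzip1 experiment, with 7 negative, beside a median of -0.00033 and 49.9% positive over all tested genes. Transcript length went with fold change only slightly here: the median was -0.016 over the 381 tested genes above 10 kb, and Dchs1 had -0.084 with the length offset. Genes above 10 kb took 3.49% to 3.68% of counts in all 6 libraries. Of the wider list, 36 of 38 matched genes were tested, 0 passed in edgeR or DESeq2, 1 had an unadjusted p under 0.05 in edgeR (5.93% of all tested genes did), 13 were positive and the median was -0.0068. Ror2 had the smallest p among the separated genes, at 88.5 CPM in S14R/+ and 83.5 CPM in the wild type with a log2 fold change of 0.096 ± 0.0395 (SE, adjusted p = 0.828 in edgeR). Invs, which encodes inversin of the proximal cilium, stood at 14.3, 14 and 13.9 CPM in the wild type and at 12.8, 12.7 and 13.7 CPM in S14R/+ (log2 fold change -0.098 ± 0.0593, SE). Wnt11, a polarity ligand, had -0.052 ± 0.0479.

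Levels of different genes were compared per kilobase of the longest transcript. In Dzip1 wild-type leaflets the order, in CPM per kb (mean ± SD, n = 3), was Fat1 at 23.2 ± 1.52, Prickle1 at 20.6 ± 0.15, Dchs1 at 16.1 ± 0.134, Vangl1 at 6.43 ± 0.165, Fat4 at 6.23 ± 0.648, Celsr1 at 5.42 ± 0.313, Vangl2 at 4.32 ± 0.0799, Fjx1 at 2.67 ± 0.0807 and Celsr2 at 2.39 ± 0.115. The range of Fat4 overlapped those of its neighbours Vangl1 and Celsr1. Within each library Fat4 was nonetheless above Celsr1 (6.04 and 5.24, 6.95 and 5.78, 5.69 and 5.24 in replicates 1, 2 and 3). Fat4 was above Vangl1 in replicate 2 and below it in replicates 1 and 3. Vangl1 was above Celsr1 in every library (at least 6.26 against at most 5.78). The order was the same in S14R/+. In the Ift88 experiment, whose table is scaled on its own, Prickle1 led at 9.31 ± 0.49 in the wild type (n = 2) and 16.2 ± 8.15 in the knockout (n = 3), followed by Vangl1 at 7.18 ± 2.56 and 8.05 ± 1.01. Dchs1 stood there at 0.549 ± 0.429 and 2.97 ± 0.405, and Fat1 at 0.177 ± 0.148 and 1.60 ± 0.314. Vangl1 was thus between 6.31 and 8.05 in all 4 group means. Dchs1, Fat1, Fat4, Fjx1, Celsr1, Celsr2 and Vangl2 were lower in every Ift88 library than in every Dzip1 library. Celsr1 stood at 0 in the Ift88 wild type and at 0.212 ± 0.13 in the knockout. Genes above 10 kb took 0.728% to 1.54% of counts in the Ift88 libraries, below every Dzip1 library. The gap in Dchs1, Fat1 and Celsr1 stood between the wild-type groups too, and its cause was not tested.

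**Figure D5:**
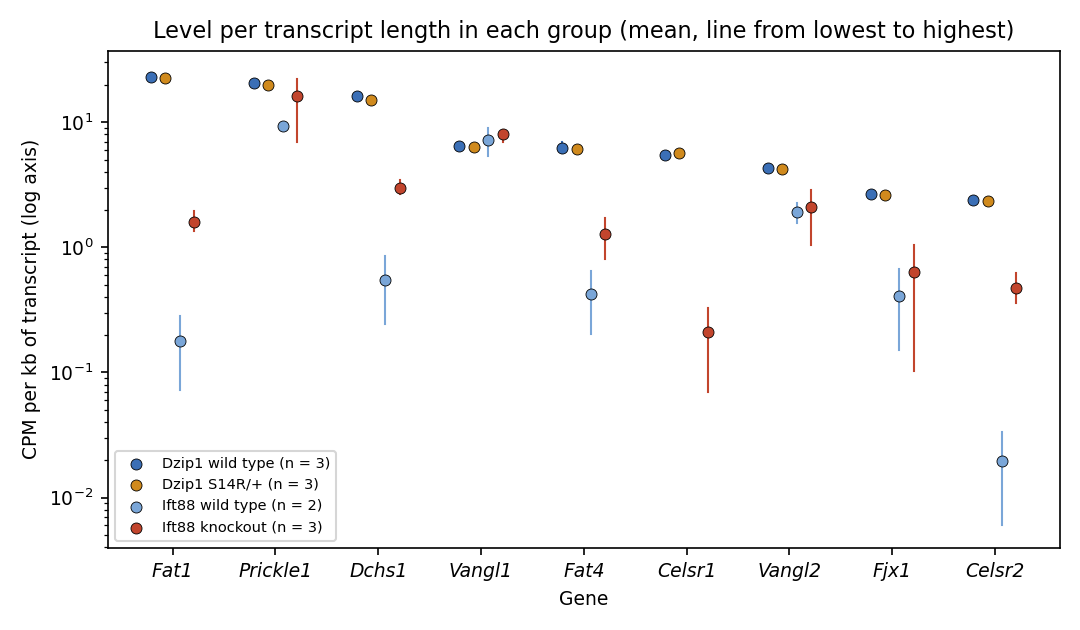
CPM per kb of the longest transcript on a log axis, in the order of the Dzip1 wild type. Points are group means and lines run from the lowest to the highest library of the group. Both Dzip1 groups nearly coincide for every gene, and Ift88 wild-type Celsr1, at 0, is left out.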

How the data were processed

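RNA of 11 mitral leaflet libraries, made with SMART-Seq v4 per the labels' protocols, was grouped by labelled genotype. The authors deposited 1 table per experiment holding unnormalized counts per gene, as its values show. The submitters' processing notes list FastQC 0.11.5, cutadapt 1.11, HTSeq, DESeq2, DESeq and build GRCm38. For aligner, annotation and strand setting: not given in the sources used here. Beside counts, the tables hold log2 fold changes and adjusted p-values by the authors. Those of the Dzip1 table were not used, since they did not follow the labelled genotypes.

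CPM are counts over the library total. Each table was fitted whole in R 4.3.3 with the quasi-likelihood test of edgeR 4.0.16 after filterByExpr and TMM, a scaling by trimmed mean ratios (Benjamini-Hochberg threshold 0.05), and the procedure was tested on simulated data. The SE given with an edgeR log2 fold change was back-calculated, as its absolute value over the square root of the F statistic of that test. Alternatives were DESeq2 1.42.0, voom in limma 3.58.1, RLE and upper-quartile scaling, at least 1 count or a mean count of 50, a threshold of 0.1, single libraries left out, the IR28N libraries, and a lowess offset (span 0.3) for the longest GENCODE M21 transcript, known for 99.3% and 97.3% of tested genes. Library size alone was added after seeing the data. The most alike pair of libraries, wild-type replicate 2 and S14R/+ replicate 2 of the Dzip1 experiment, still differed (chi-squared over its degrees of freedom 11.2). The genes, lists, motifs and tests were chosen with earlier results of these data known. Named beside the 9 genes are the 3 separated wider-list genes of smallest p with a mean count of at least 50 and the 5 genes nearest to Dchs1. Reads of the opposite-strand genes Gm15645 (in Dchs1) and Gm2366 (in Fat1) cannot be told apart from those of their partners without a strand setting.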

Additional observations from a re-analysis of the deposited data

How the results depend on the processing

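In the Ift88 experiment the count of genes past the threshold was 0 in edgeR and 376 in DESeq2, and ranged from 0 to 187 when 1 library was left out, with 187 without wild-type replicate 1. In the Dzip1 experiment it was 0, with a range of 0 to 10 (without wild-type replicate 2 it was 10, without its replicate 1 it was 2 and without S14R/+ replicate 2 it was 1), and 0 of the 9 genes passed in any of its fits. The Ift88 median of the 9 genes was 0.57 with the length offset and 0.99 to 2.19 with 1 library left out. The wider list's median, 0.39, was 0.089 with the offset, 1.27 in the IR28N libraries only and 0.27 to 0.98 with 1 library left out. In the Dzip1 experiment these ranges were -0.04 to -0.0022 and -0.017 to -0.0098. DESeq2 called Celsr1, Celsr2, Dchs1 and Fat1 and the authors' deposited table Celsr2 and Dchs1, and no other alternative called a gene of the set. The cause of these differences was not tested.

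Signs turned in the following fits. In the Ift88 experiment Vangl2 became -0.055 in DESeq2 and with RLE scaling, -0.14 in limma-voom, -0.030 with upper-quartile scaling, -0.20 in the IR28N libraries and -0.75 with the length offset, which also put Vangl1 at -0.68 and Fat4 at -0.11. With 1 library left out Vangl2 ranged from -0.29 to 0.29, Vangl1 from -0.14 to 0.28 and Fjx1 from -0.077 to 1.74. In the Dzip1 experiment Celsr2 became -0.00023 in limma-voom, -0.0025 with upper-quartile scaling, -0.012 with library size alone and -0.0016 at a mean count of at least 50. With 1 library left out it ranged from -0.037 to 0.040, Fat1 from -0.079 to 0.036, Fat4 from -0.095 to 0.073, Fjx1 from -0.078 to 0.048, Vangl1 from -0.025 to 0.0037 and Vangl2 from -0.023 to 0.014. Dchs1, Prickle1 and Celsr1 kept their sign in every fit of both experiments. The filter at a mean count of 50 left Celsr1 out of the Ift88 fit. No paired analysis was possible because the labels give no replicate numbers shared between the groups. The Ift88 wild-type values of Celsr1 and Celsr2 rest on 0 to 19 counts per library, in libraries of 31.4 and 53.8 M counts. The cause of these low counts was not tested.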
